A study of Mus musculus with 12 samples.

Results

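The genes described here make, bind or break down hyaluronan, a large sugar polymer of the extracellular matrix, and were measured in mouse aortic valves. They are 10 of the 20620 genes in the deposited count table, chosen by name: the synthases Has1, Has2 and Has3, the hyaluronidases Hyal1 and Hyal2, the receptor Cd44, the proteoglycan Vcan, the link proteins Hapln1 and Hapln3, and Tnfaip6. All 10 passed the filter on low counts. Valves were collected at postnatal day 10, and RNA was sequenced in 12 libraries, 4 from each of 3 groups. The groups were wildtype, mice with 1 functional copy of Notch1 and of Gata5 (Notch1+/-;Gata5+/-, called compound heterozygous below), and mice with 1 functional copy of Notch1 and none of Gata5 (Notch1+/-;Gata5-/-, called Gata5-null). Both mutant groups share the loss of a Notch1 copy, so no group here isolates Notch1 or Gata5 loss alone. Each library pooled 3 valves, so p-values measure the spread between pools, and how the alleles were made and in which strain is not given in the sources used here.

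Hyaluronan is extruded through the plasma membrane by the Has enzymes, which join glucuronic acid and N-acetylglucosamine taken from UDP-sugars. Versican and other large proteoglycans bind the chain through their N-terminal domain, link proteins lock that complex, and Tnfaip6 (TSG-6) transfers protein heavy chains onto it. In the embryonic heart this matrix swells the endocardial cushions from which valves form, and mice without Has2 do not form cushions. In the mature valve, versican and hyaluronan are best known from the spongiosa, the middle layer of the leaflet.

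The libraries held 13866604 to 25059653 counts. Gata5, the transcription factor deleted in the last group, had 0 counts in all 4 Gata5-null libraries, below floors of 0.124 to 0.207 CPM (each count relative to its library's TMM-scaled total) set by 3 counts. It averaged 1.77 ± 1.03 CPM in wildtype and 4.09 ± 2.27 CPM in compound heterozygous valves (SD, n = 4). Notch1 averaged 128.1 ± 26.4, 171.6 ± 20.6 and 185.1 ± 29.5 CPM in wildtype, compound heterozygous valves and Gata5-null valves, so its level does not check the heterozygous label. Of the marker lists for cell types, interstitial fibroblast markers summed to 18413.9 to 24635.7 CPM and endothelial markers to 761.0 to 1151.4 CPM over the 12 libraries, so markers of both valve cell types were detected. Cardiomyocyte markers were higher still, at 23157.9 to 53918.8 CPM, and lymphocyte markers were at 0 to 2.48 CPM. Libraries standing apart were Gata5-null replicate 3, with 6000 genes at 0 and a mean Spearman correlation of 0.892 with the others, and wildtype replicate 2, with 3208 genes at 0 and 0.925. The other 10 had 1017 to 2908 genes at 0 and correlations of 0.933 to 0.950. In whole tissue, fewer cells of a type and less RNA per cell cannot be told apart.

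Promoter windows are shown for 4 members, because Has1 and Hyal1 were among those whose values separated groups, and Vcan and Hapln1 are neighbours on chromosome 13. Each is the 250 bases before the RefSeq start on the gene's own strand, in build GRCm38.p6. Capitals mark matches to a GATA motif (AGATAA, with T also allowed at the first base and G at the last), bound by factors of the Gata5 family, or to the core TGGGAA bound by RBPJ, the DNA-binding partner of activated Notch. Both motifs were searched on both strands.
Has1, chr17:17855189-17855438, minus strand: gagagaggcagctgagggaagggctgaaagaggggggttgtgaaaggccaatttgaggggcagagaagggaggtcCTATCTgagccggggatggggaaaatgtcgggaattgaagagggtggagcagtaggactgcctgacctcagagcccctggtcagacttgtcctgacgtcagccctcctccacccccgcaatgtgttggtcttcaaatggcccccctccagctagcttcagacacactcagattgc
Hyal1, chr9:107576700-107576949, plus strand: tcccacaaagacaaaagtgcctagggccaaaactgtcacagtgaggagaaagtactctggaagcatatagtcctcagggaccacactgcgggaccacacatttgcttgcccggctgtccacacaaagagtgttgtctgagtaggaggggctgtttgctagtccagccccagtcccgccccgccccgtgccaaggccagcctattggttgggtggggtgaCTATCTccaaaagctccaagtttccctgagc
Vcan, chr13:89742513-89742762, minus strand: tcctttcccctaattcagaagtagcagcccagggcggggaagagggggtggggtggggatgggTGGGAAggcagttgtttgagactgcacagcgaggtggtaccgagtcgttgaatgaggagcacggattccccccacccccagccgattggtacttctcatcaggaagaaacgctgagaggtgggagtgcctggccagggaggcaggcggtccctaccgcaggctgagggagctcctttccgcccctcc
Hapln1, chr13:89540386-89540635, plus strand: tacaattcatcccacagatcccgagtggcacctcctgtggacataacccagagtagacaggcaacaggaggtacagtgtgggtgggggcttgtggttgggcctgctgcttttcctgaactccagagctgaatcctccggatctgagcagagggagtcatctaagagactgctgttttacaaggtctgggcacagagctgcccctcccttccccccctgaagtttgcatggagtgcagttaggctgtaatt
The Has1 and Hyal1 windows each hold a GATA match on the reverse strand, beginning 175 and 31 bases before the start. The Vcan window holds an RBPJ core 187 bases before the start, and the Hapln1 window holds neither. A window was listed for 8 of the 10 members, and of these 3 held a GATA match (Has1, Hyal1 and Cd44) and 2 an RBPJ core (Cd44 and Vcan). Over 32851 promoter windows of the same length, 26.5% held a GATA match and 21.6% an RBPJ core. A match is a description of the letters only.

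Compared per length, versican was the most abundant member. These levels are CPM per kilobase of summed exons (GENCODE M21, build GRCm38). In wildtype Vcan stood at 39.8 ± 2.66 CPM per kb (SD, n = 4), Hyal1 at 12.4 ± 2.38 and Cd44 at 10.9 ± 2.47. Hyal2 at 4.94 ± 0.613, Hapln1 at 3.59 ± 0.834, Has3 at 3.39 ± 0.915 and Has1 at 2.86 ± 1.22 CPM per kb followed. Has2 and Tnfaip6 both stood at 2.16, with SDs of 0.443 and 0.530, and Hapln3 was last at 0.164 ± 0.125 CPM per kb. In wildtype, neighbours in this order were separated by more than their ranges at 3 places: between Vcan and Hyal1, between Cd44 and Hyal2, and between Tnfaip6 and Hapln3. The first and second of these gaps were present in all 3 genotypes, and the last was closed in Gata5-null valves, where the ranges of Tnfaip6 and Hapln3 overlapped. Has3 and Hapln1, which overlapped in the other groups, did not overlap in Gata5-null valves. Aggrecan (Acan), the cartilage counterpart of versican and no member, stood at 25.1 ± 8.0 CPM per kb in wildtype.

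**Figure D1:**
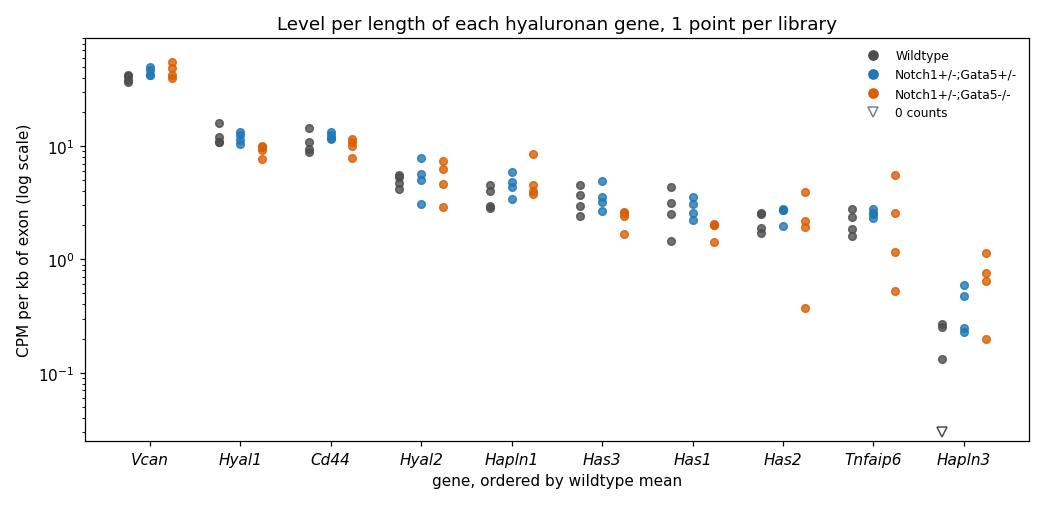
Level of each hyaluronan gene in CPM per kilobase of exon (log axis) in every library, by genotype; an open triangle marks a library with 0 counts. Vcan is highest in every library, and Hapln3 is lowest in wildtype at a mean of 0.164 CPM per kb.

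The members also differed in how steady they were between pools. Their biological coefficient of variation, the spread left after counting error in the edgeR fit, was 0.155 for Vcan, at the 2.30th percentile of all genes tested. It was 0.180 for Cd44 and 0.194 for Hyal1, 0.277 to 0.367 for Hapln1, Has3, Hyal2 and Has1, and 0.469 for Has2. Tnfaip6 reached 0.666 and Hapln3 1.114, the latter at the 76.7th percentile. The genes of highest level were therefore measured most tightly, and fold changes of Hapln3 and Tnfaip6 carry wide intervals.

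The 3 genotypes were compared in 1 edgeR quasi-likelihood model of all 12 libraries, with p-values adjusted over 19346 genes. No member passed an adjusted p of 0.05 in any comparison. Between Gata5-null valves and wildtype 0 of 10 members were called, against 0.0258% of all genes, and 1 (Hyal1) had an unadjusted p under 0.05, against 5.40% of all genes. Between compound heterozygous valves and wildtype 0 of 10 were called, with 0% of all genes, and 0 had an unadjusted p under 0.05, against 1.25%. Between the mutant groups 0 of 10 were called, with 0% of all genes, and 2 (Has3 and Hyal1) had an unadjusted p under 0.05, against 3.18%. DESeq2 and limma-voom also called 0 members in each comparison, where DESeq2 called 0.240%, 0.0391% and 0.0635% of 20458 genes. The edgeR test of any difference among the genotypes called 0 members and 0.0155% of all genes, and 1 member (Hyal1) had an unadjusted p under 0.05, against 2.85% of all genes. The Hyal1 p in that edgeR test was 0.0492.

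The direction of the members was even against wildtype for the Gata5-null group. Of the 10 log2 fold changes in that comparison 5 were positive (46.1% of all genes), with a median of 0.02 beside -0.035 for all genes. In compound heterozygous valves against wildtype 8 were positive (50.3% of all genes), with a median of 0.18 beside 0.002. In Gata5-null valves against compound heterozygous valves 3 were positive (44.5% of all genes), with a median of -0.17 beside -0.042. The comparisons share groups, so these counts are not separate observations.

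**Figure D2:**
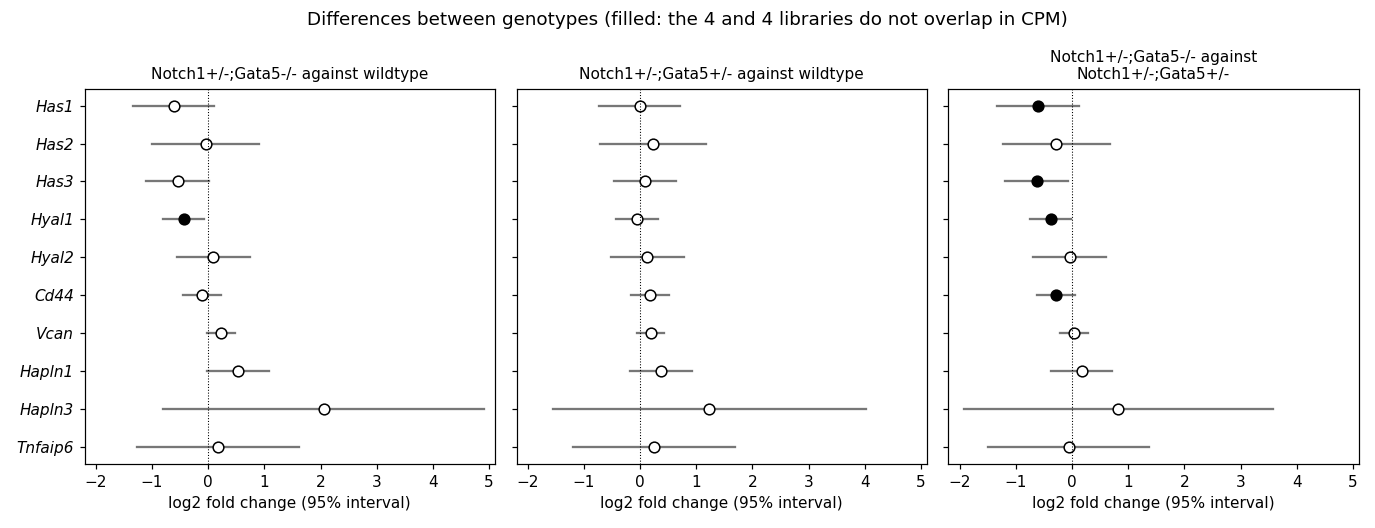
Log2 fold change of each of the 10 genes with its 95% interval from the edgeR fit, in the 3 comparisons; filled points mark genes whose groups of 4 did not overlap in CPM. Most intervals cross 0, and Hyal1 is the only filled point in Gata5-null valves against wildtype.

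Among the synthases, Has1 read 11.3, 19.7, 14.2 and 6.56 CPM in wildtype replicates 1 to 4, 11.5, 10.1, 16.0 and 13.9 CPM in compound heterozygous valves, and 9.18, 9.13, 9.09 and 6.44 CPM in Gata5-null valves. All 4 libraries without Gata5 lay below all 4 compound heterozygous libraries, while wildtype, with the widest range, overlapped both. On the log2 scale the difference was -0.61 ± 0.35 (SE) against compound heterozygous valves (unadjusted p = 0.0978, adjusted p = 1) and -0.61 ± 0.35 against wildtype (adjusted p = 1). The two-sided exact permutation test of mean CPM gave p = 0.0286 for the former, the smallest that 35 splits of 4 and 4 allow, and p = 0.200 for the latter. Such a test was computed for each of the 10 members in each of 3 comparisons.

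Has3 read 23.4, 28.9, 18.8 and 15.5 CPM in wildtype, 20.4, 31.6, 22.8 and 17.0 CPM in compound heterozygous valves, and 10.7, 16.8, 16.5 and 15.5 CPM in Gata5-null valves. As with Has1, the Gata5-null libraries lay below the compound heterozygous libraries without overlap, though the closest values were 17.0 and 16.8 CPM. Between the mutant groups the log2 fold change was -0.63 ± 0.27 (95% interval -1.19 to -0.07, unadjusted p = 0.0293, adjusted p = 1, exact permutation p = 0.0286). Against wildtype the Gata5-null value was -0.54 ± 0.27 (adjusted p = 0.953). Has3 shares 352 exon bases, 5.52% of its exons, with Chtf8 on the opposite strand, and the strand setting of the counting is not given in the sources used here. Chtf8 averaged 34.7, 38.2 and 37.8 CPM in wildtype, compound heterozygous valves and Gata5-null valves.

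Has2, the synthase needed for cushion formation, showed no such separation. It read 10.9, 7.18, 7.96 and 10.6 CPM in wildtype, 11.6, 11.5, 8.27 and 11.8 CPM in compound heterozygous valves, and 9.27, 16.6, 1.58 and 8.10 CPM in Gata5-null valves. The lowest and the highest of all 12 values were both Gata5-null pools: replicate 3 with 23 counts and replicate 2 with 257. Against wildtype the log2 fold change was -0.04 (95% interval -1.0 to 0.91), and it ranged from -0.53 without replicate 2 to 0.31 without replicate 3. The interval includes a log2 difference of 0.91 upward and of -1.0 downward. Has2 shares 182 exon bases, 4.30% of its exons, with the antisense Has2os, which was at 4.34 CPM in Gata5-null replicate 3, its highest value.

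Summed over the 3 enzymes, synthase expression was 43.8 ± 9.66 CPM in wildtype, 46.6 ± 4.79 CPM in compound heterozygous valves and 32.2 ± 6.98 CPM in Gata5-null valves (SD, n = 4). The Gata5-null range of 27.2 to 42.5 CPM overlapped wildtype at 32.6 to 55.8 CPM and lay next to the compound heterozygous range of 42.8 to 53.2 CPM. With RLE scaling the mutant groups overlapped, at 28.5 to 43.2 and 41.8 to 52.9 CPM, as they did with plain totals. The mix of enzymes, as shares of summed CPM per kb, had these means: Has3 held 39.9%, 39.7% and 38.3%, Has1 33.0%, 31.9% and 30.8%, and Has2 27.1%, 28.4% and 30.9% in wildtype, compound heterozygous valves and Gata5-null valves. Within Gata5-null valves the Has2 share ran from 7.51% in replicate 3 to 45.8% in replicate 2.

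Hyal1, the lysosomal hyaluronidase, was the member whose Gata5-null values separated from wildtype. It read 40.9, 60.1, 41.3 and 45.6 CPM in wildtype, 50.5, 47.3, 39.3 and 42.7 CPM in compound heterozygous valves, and 36.8, 34.6, 37.9 and 29.0 CPM in Gata5-null valves. Every Gata5-null library lay below every library of the other groups, which overlapped each other, although with RLE scaling or plain totals it overlapped compound heterozygous valves. Group means were 47.0 ± 8.99, 44.9 ± 4.95 and 34.6 ± 3.96 CPM. Log2 fold changes were -0.44 ± 0.18 against wildtype (95% interval -0.81 to -0.07, unadjusted p = 0.0217, adjusted p = 0.841) and -0.38 ± 0.18 against compound heterozygous valves (95% interval -0.75 to -0.01, unadjusted p = 0.0464, adjusted p = 1). Both exact permutation tests gave 0.0286. Without both libraries standing apart the values were -0.34 (unadjusted p = 0.0776) and -0.41 (unadjusted p = 0.0243).

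Other measures moved with Hyal1. The 8 smooth muscle markers, from Myh11 to Synpo2, summed to 5323.6 to 7169.3 CPM in wildtype, 4870.7 to 5333.9 CPM in compound heterozygous valves and 3559.6 to 4789.5 CPM in Gata5-null valves, again with the Gata5-null group below the rest. Over the 12 libraries Hyal1 and this sum correlated at r = 0.63 (rho = 0.73), and Hyal1 correlated at r = -0.70 (rho = -0.40) with the cardiomyocyte markers. The part of either in the Hyal1 difference was not tested. Wildtype replicate 2, which stood apart, had both the highest Hyal1 value and the lowest cardiomyocyte sum, 23157.9 CPM. Every marker list was correlated with every member, and the values given here and below are among the larger ones. Has2, for example, reached r = -0.63 (rho = -0.47) with the lymphatic endothelial markers. Hyal1 also shares 1920 exon bases, 50.8% of its exons, with Naa80 on the same strand. Naa80 averaged 13.5, 16.9 and 17.1 CPM in wildtype, compound heterozygous valves and Gata5-null valves, while how shared reads were assigned is not given in the sources used here.

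Hyal2, the hyaluronidase anchored at the cell surface and the next gene to Hyal1 on chromosome 9, did not separate the groups. Its values were 17.7, 13.8, 18.1 and 15.5 CPM in wildtype, 25.8, 16.6, 18.8 and 10.1 CPM in compound heterozygous valves, and 24.1, 9.45, 20.7 and 15.1 CPM in Gata5-null valves. Both mutant groups spread more widely than wildtype, and all 3 overlapped. Its log2 fold change in Gata5-null valves against wildtype was 0.09 (95% interval -0.55 to 0.74).

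Cd44, the main cell-surface receptor for hyaluronan, read 60.5, 73.3, 63.2 and 97.2 CPM in wildtype, 90.7, 84.0, 79.4 and 77.8 CPM in compound heterozygous valves, and 77.8, 53.6, 67.7 and 73.5 CPM in Gata5-null valves. The mutant groups did not overlap, but the lowest value of the former and the highest of the latter both round to 77.8 CPM. Between them the log2 fold change was -0.28 ± 0.16 (95% interval -0.62 to 0.05, adjusted p = 1, exact permutation p = 0.0286). The wildtype group spanned most of both mutant ranges, and the value against wildtype was -0.11 (95% interval -0.45 to 0.23) in the Gata5-null group.

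Between the mutant groups, then, 4 of 10 members did not overlap (Has1, Has3, Hyal1 and Cd44), against 2.73% of all genes. This count depended on scaling: with RLE factors, or with CPM of the plain total count, only Has1 remained. Against wildtype, 1 of 10 (Hyal1) did not overlap in Gata5-null valves, against 2.93% of all genes, and Hyal1 was also the member without overlap under RLE scaling, plain totals and without both libraries standing apart. In compound heterozygous valves against wildtype 0 of 10 did not overlap, against 2.24% of all genes. Without both libraries standing apart that count was 1, Vcan. The share of all genes was computed only for TMM scaling with all libraries. Smaller groups separate more easily, so counts without both libraries standing apart cannot be set against those shares.

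**Figure D3:**
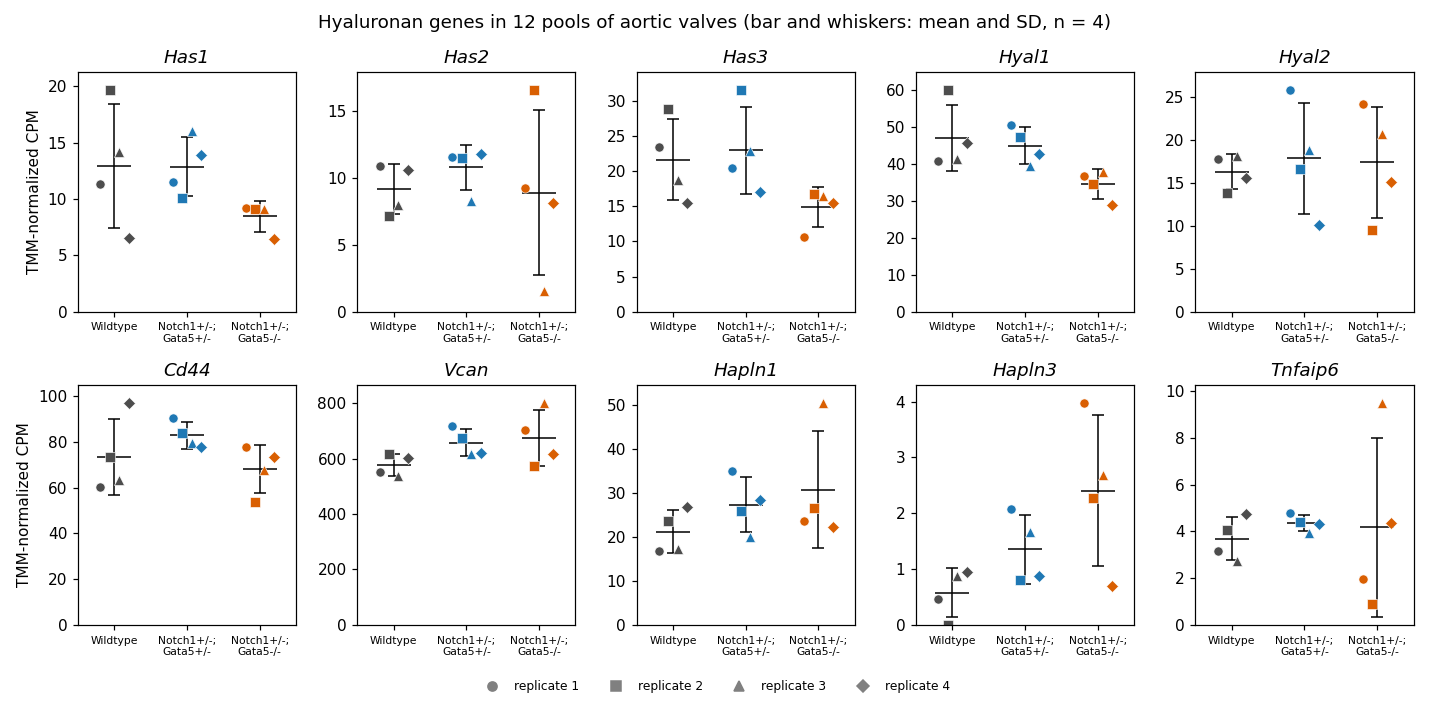
CPM (TMM-normalized) of each of the 10 genes in the 12 libraries, by genotype, with the mean and SD of each group of 4. Hyal1 sits at 29.0 to 37.9 CPM in Gata5-null valves, under all 8 other libraries at this scaling, and Has2 and Tnfaip6 spread most widely in Gata5-null valves, from 1.58 to 16.6 and from 0.907 to 9.5 CPM.

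Vcan, the large chondroitin sulfate proteoglycan that binds hyaluronan, spanned a narrow range in wildtype. It read 552.0, 615.9, 535.5 and 601.4 CPM in wildtype, 717.3, 673.6, 614.9 and 619.6 CPM in compound heterozygous valves, and 701.1, 572.7, 800.9 and 617.2 CPM in Gata5-null valves. Of the 8 mutant libraries, 6 lay above the highest wildtype library, and the remaining pair lay within the wildtype range. The log2 fold change against wildtype was 0.19 ± 0.12 in compound heterozygous valves (95% interval -0.05 to 0.43, adjusted p = 1, exact permutation p = 0.0571). In Gata5-null valves it was 0.22 ± 0.12 (95% interval -0.02 to 0.47, unadjusted p = 0.0688, adjusted p = 0.996). Rises of more than 0.47 on the log2 scale lie outside both intervals. Lymphatic endothelial markers (5 genes: Prox1, Pdpn, Flt4, Ccl21a and Reln), summed, correlated with Vcan over the 12 libraries at r = 0.80 (rho = 0.83). They ran from 124.6 to 167.0 CPM in wildtype, 144.6 to 175.2 CPM in compound heterozygous valves and 122.0 to 200.9 CPM in Gata5-null valves, and their part in the Vcan values was not tested. Lyve1, another lymphatic marker, was not in this sum. It averaged 10.8, 11.3 and 7.97 CPM in wildtype, compound heterozygous valves and Gata5-null valves, so the sum need not measure lymphatic cells.

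Hapln1, the link protein that stabilises proteoglycan on hyaluronan, lies next to Vcan on chromosome 13. It read 16.8, 23.7, 17.3 and 26.8 CPM in wildtype, 35.1, 25.9, 20 and 28.3 CPM in compound heterozygous valves, and 23.6, 26.6, 50.5 and 22.2 CPM in Gata5-null valves. The single value of 50.5 CPM, in the Gata5-null replicate 3, stood beside 3 values of 22.2 to 26.6 CPM in a group mean of 30.7 ± 13.3 CPM. The log2 fold change against wildtype was 0.53 ± 0.27 (unadjusted p = 0.0574, adjusted p = 0.960, exact permutation p = 0.257), and 0.20 without that library. Against compound heterozygous valves the value turned from 0.17 to -0.17 without it.

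Over the 12 libraries Hapln1 and Vcan were the most alike pair of members, with r = 0.83 and rho = 0.66 for log2 CPM. Without the libraries standing apart r was 0.69, and without the 2 libraries farthest from the Vcan median it was 0.55. In Gata5-null replicate 3 both genes were at their highest. The points share library depth and tissue makeup.

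Hapln3, a link protein found in vessels among other tissues, had few counts. It had 9, 0, 17 and 19 counts in wildtype, 40, 16, 33 and 18 in compound heterozygous valves, and 85, 35, 39 and 17 in Gata5-null valves. The means were 0.575 ± 0.438, 1.36 ± 0.620 and 2.41 ± 1.35 CPM, and the groups overlapped in every comparison. The log2 fold change in Gata5-null valves against wildtype was 2.06 ± 1.38 (95% interval -0.80 to 4.91, adjusted p = 1, exact permutation p = 0.0857). Hapln3 correlated over the 12 libraries at r = -0.80 with the summed smooth muscle markers and at r = 0.60 with the cartilage-like markers (5 of 6 listed markers in the count table), which ran from 253.4 to 397.4 CPM in wildtype, 373.4 to 665.5 CPM in compound heterozygous valves and 238.3 to 921.4 CPM in Gata5-null valves. Their part in the Hapln3 values was not tested. Its neighbour on chromosome 7 is Acan.

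Tnfaip6, which transfers inter-alpha-inhibitor heavy chains to hyaluronan, read 3.17, 4.08, 2.74 and 4.76 CPM in wildtype, 4.79, 4.4, 3.93 and 4.32 CPM in compound heterozygous valves, and 1.97, 0.907, 9.5 and 4.34 CPM in Gata5-null valves. Again the extremes of all 12 libraries were Gata5-null pools, and here replicate 3 was the highest and replicate 2 the lowest, the reverse of Has2. The log2 fold change against wildtype was 0.18 ± 0.70 (95% interval -1.26 to 1.62) and -0.60 without replicate 3. Tnfaip6 and Has2 correlated at r = -0.66 but at rho = -0.16, and without the 2 libraries farthest from the Has2 median r was 0.27, so the negative value rests on those pools.

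**Figure D4:**
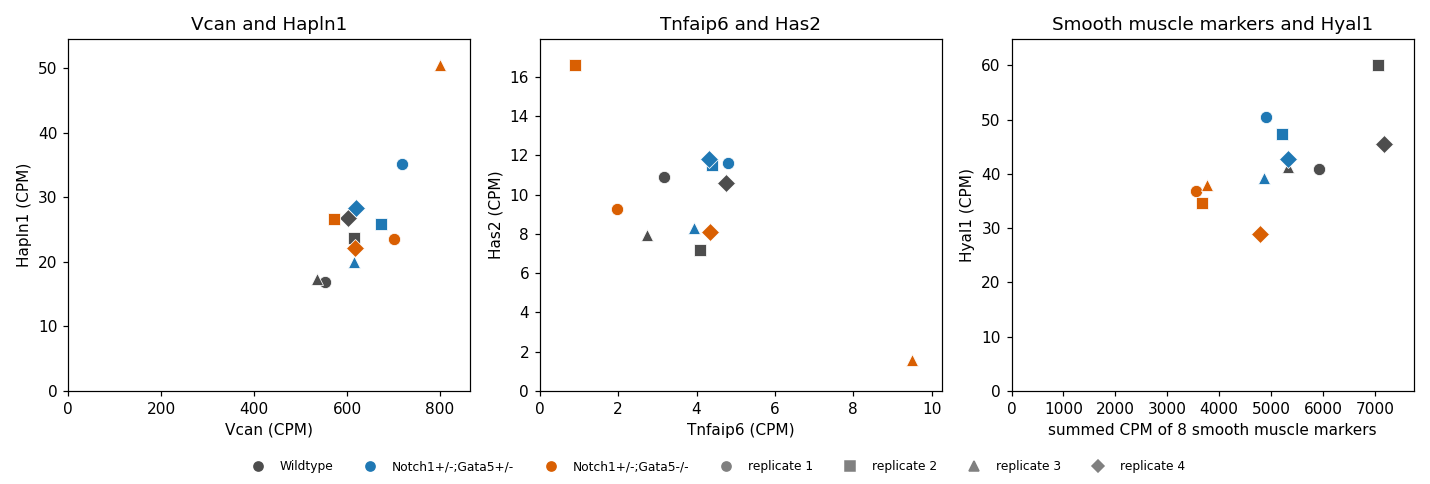
Each point is a library, coloured by genotype and shaped by replicate number, with CPM on both axes: Vcan (x) and Hapln1 (y), Tnfaip6 (x) and Has2 (y), and the sum of 8 smooth muscle markers (x) and Hyal1 (y). Gata5-null replicate 3 lies at the upper right for Vcan and Hapln1 (800.9 and 50.5 CPM) and apart from the other libraries for Has2 and Tnfaip6 (1.58 and 9.5 CPM).

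Of the 45 pairs of members, 7 had r above 0.5 and 5 had r below -0.5, and the median was 0.08. The share over all gene pairs was not computed. Has2 with Vcan was at -0.58 (rho = -0.06) and Has2 with Hapln1 at -0.53 (rho = 0.24). Without the libraries standing apart these were 0.04 and 0.54. Has3 with Hapln3 was at -0.63 and Hyal1 with Hapln3 at -0.53, and at -0.51 and -0.05 without those libraries. Beside Hapln1 with Vcan, Has3 with Hyal1 reached 0.61. It was 0.65 without the 2 libraries farthest from the Has3 median and 0.49 without the 2 farthest from the Hyal1 median. Has1 with Hyal1 was at 0.59, but at 0.02 without the 2 libraries farthest from the Has1 median, so that value rests on those libraries. Has1 with Has3 was at 0.56, at 0.38 without the same libraries, and at 0.81 without the 2 farthest from the Has3 median. Cd44 with Tnfaip6 was at 0.53, and at 0.76 without the libraries standing apart. It was 0.09 without the 2 farthest from the Cd44 median and 0.53 without the 2 farthest from the Tnfaip6 median.

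Likeness of pattern was also ranked over 13893 other genes, by Pearson r of log2 CPM over the 12 libraries. The genes most like Vcan were Lepr (r = 0.900), Dclk1 (0.895) and Plce1 (0.890). For Hapln1 they were Cdk5rap3 (0.907), Fli1 (0.893) and 4933407K13Rik (0.887), and for Cd44 they were Sun1 (0.859), Plekho2 (0.850) and Apbb1ip (0.846). For Has2 they were 4930466I24Rik (0.988), Kyat1 (0.967) and Osbpl10 (0.964), and the pattern of Has2 includes the library at 1.58 CPM. In the same library Hapln1 was at 50.5 CPM. These are the highest of 13893 values over 12 libraries, and how high such maxima run by chance was not tested.

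Of 48 other genes listed for roles around hyaluronan, 39 were in the deposited count table and were tested, and 9 were absent from it. In Gata5-null valves against wildtype 1 of the 39 was called, lower, against 0.0258% of all genes, and 3 (7.69%) had an unadjusted p under 0.05, against 5.40% of all genes. The list was chosen with earlier results of these data known, so the called gene is no independent finding. In each of the other comparisons 0 were called by edgeR, with 0% of all genes, and 2 (5.13%) had an unadjusted p under 0.05, against 1.25% of all genes for compound heterozygous valves and wildtype and 3.18% for the mutant groups. The medians of their log2 fold changes were 0.06, 0.05 and -0.07, beside -0.035, 0.002 and -0.042 for all genes. None of the 8 enzymes that supply the UDP-sugars (Ugdh, Ugp2 and Uap1 among them) had an unadjusted p under 0.05 in any comparison, and their fold changes lay between -0.32 and 0.34. The same held for the 7 tested genes listed as other breakdown enzymes, among them the cell-surface Cemip2, with log2 fold changes from -0.43 to 0.68. That list includes Idua, which does not act on hyaluronan. The value of 0.68 was Hyal3 in compound heterozygous valves against wildtype, with an SE of 1.96 at means of 0.943 and 0.587 CPM.

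The called gene was Itih4, a heavy chain gene of the inter-alpha-trypsin inhibitors. It read 64.2, 74.1, 78.1 and 93.2 CPM in wildtype, 40.4, 40.7, 51.2 and 46.3 CPM in compound heterozygous valves, and 26.5, 33.1, 37.0 and 41.0 CPM in Gata5-null valves. Both mutant groups lay below wildtype without overlap, and they overlapped each other. Against wildtype, the log2 fold change was -1.17 ± 0.17 in Gata5-null valves (adjusted p = 0.00824) and -0.79 ± 0.17 in compound heterozygous valves (edgeR adjusted p = 1, DESeq2 adjusted p = 0.0489). Itih4 was thus the gene of the wider pathway that edgeR called, and Tnfaip6 was not called. Whether the Itih4 protein is transferred to hyaluronan cannot be read from these counts. In a fit of the 8 compared libraries alone the Itih4 adjusted p was 0.0695.

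Other named genes of the wider pathway did not pass after adjustment. Acan averaged 187.4 ± 59.7, 183.1 ± 26.8 and 254.6 ± 46.2 CPM in wildtype, compound heterozygous valves and Gata5-null valves, with a log2 fold change of 0.48 ± 0.19 between the mutant groups (unadjusted p = 0.0254, adjusted p = 1), which did not overlap. Adamts5, a protease that cleaves versican and aggrecan, averaged 101.0, 97.9 and 81.5 CPM, at -0.31 ± 0.15 in Gata5-null valves against wildtype (adjusted p = 0.909). Itih5, another heavy chain gene, was at 0.36 ± 0.14 in compound heterozygous valves against wildtype (unadjusted p = 0.0156, adjusted p = 1). Hmmr, which encodes a hyaluronan-binding protein also found on the mitotic spindle, was at 0.69 ± 0.40 in the same comparison (unadjusted p = 0.0982, adjusted p = 1).

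**Figure D5:**
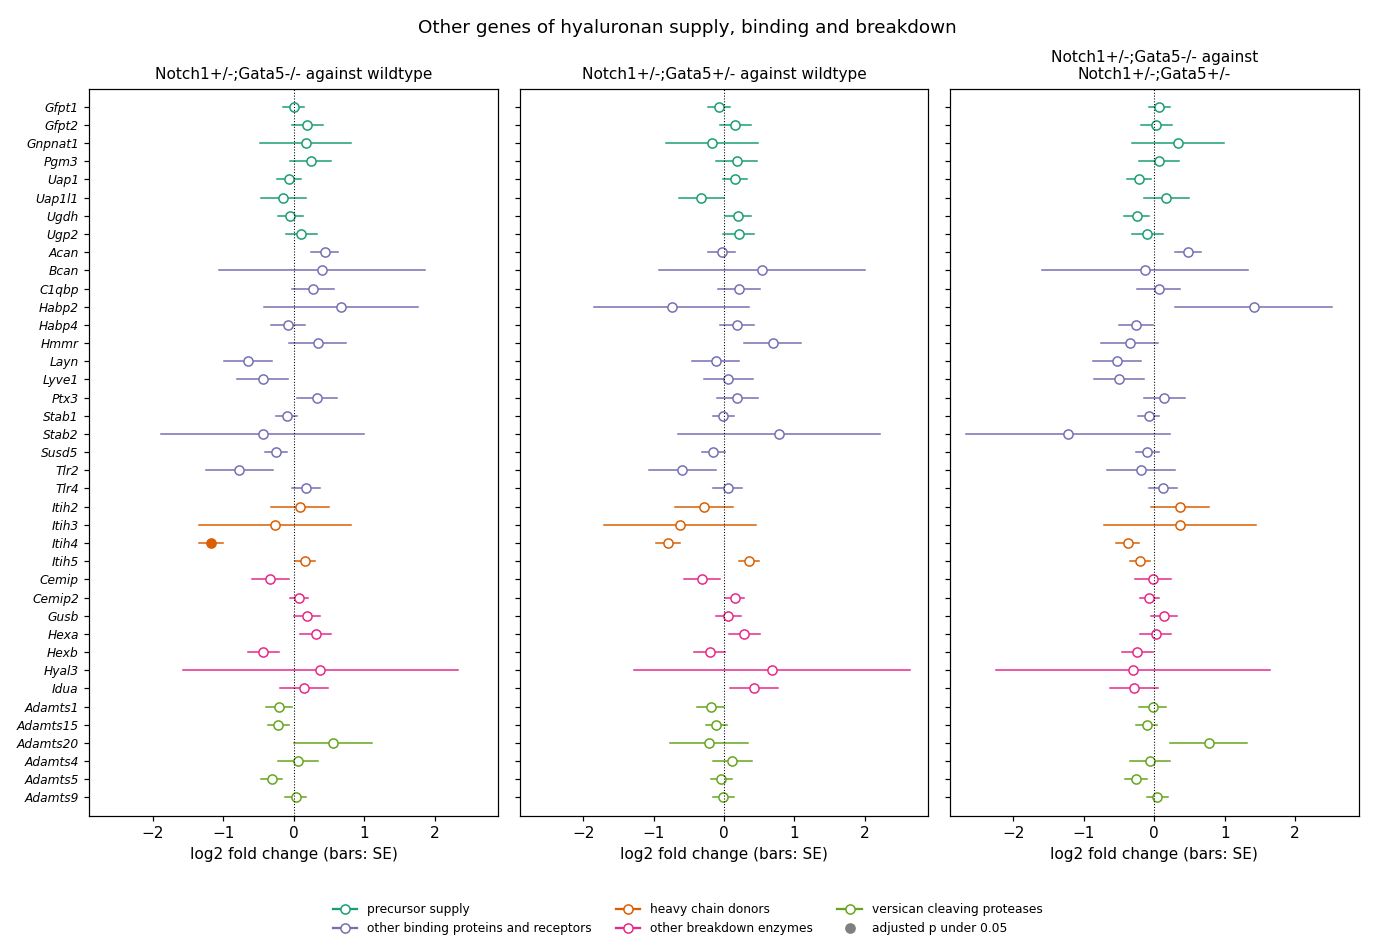
Log2 fold change ± SE of 39 other genes of the wider list, grouped by listed role, in the 3 comparisons. Filled points mark an edgeR adjusted p under 0.05. Itih4 in Gata5-null valves against wildtype, at -1.17, is the only filled point.

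In the authors' deposited table of 13959 genes, whose values match a refit for Gata5-null valves against wildtype, 33 genes are marked as changed and 0 of the 10 members are among them. Its title gives limits on both fold change and adjusted p, while calls here used adjusted p alone. Unadjusted p-values in the authors' deposited table were under 0.05 for 3 members: Vcan (0.0314), Hapln3 (0.0382) and Hyal1 (0.0413). How many of that table's 13959 genes lay under 0.05 was not counted, so these 3 cannot be set against a share of all genes. Adjusted p-values of the members in the authors' deposited table ran from 0.706 to 1.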

How the data were processed

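RNA of 12 libraries of mouse aortic valve, 4 per genotype, was analysed from a table of raw counts for 20620 genes that the authors deposited. The submitters' processing notes name Trim Galore, STAR 2.7.10b, the build GRCm39 and DESeq2 1.34.0. Which tool counted the reads, with which annotation and strand setting, is not given in the sources used here. In addition, the authors deposited p-values, log2 fold changes with standard errors and Wald statistics (scores), and a mean signal (normalized counts) per gene. That table names no comparison, and its fold changes match a DESeq2 refit of Gata5-null against wildtype to within 0.000166.

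In R 4.3.3, edgeR 4.0.16 kept 19346 genes (filterByExpr, 1274 removed) and scaled libraries by TMM. A robust quasi-likelihood model with group as its term was fitted to all 12 libraries, with Benjamini-Hochberg adjustment over all genes and a threshold of 0.05. Correlations used log2 CPM with a prior count of 2. The scripts were tested on simulated data. There, 34% of genes with a true log2 change of 1 in size and 58% of those with 2 were called. False calls numbered 7. The changed genes were drawn at random from expressed genes of differing spread, so these rates do not describe single members. Members without a call may still differ. Alternatives were RLE scaling, no filter, DESeq2 1.42.0, limma-voom 3.58.1, the 8 compared libraries alone, a replicate block, leaving out each library, and leaving out both libraries standing apart. No pair of libraries within a group agreed within counting noise. Floors cover counting error only, because PCR copies were not marked by molecular identifiers.

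The named genes were all members, Notch1 and Gata5, the 3 genes of the wider list with the smallest p in each comparison, and the 3 genes most like each of Has2, Hapln1, Cd44 and Vcan. Genes sharing exon bases with a member, and genes quoted as examples of a role, were named after values were seen. Members, lists and the libraries standing apart were chosen with earlier results of these data known. Of the symbols, 13959 came from the deposited table and 6077 from GENCODE M21 (GRCm38). Promoters came from RefSeq, GRCm38.p6.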

Additional observations from a re-analysis of the deposited data

Results flagged for a closer look

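In 3 of 45 groups of 4 libraries (10 members and 5 other named genes in 3 genotypes), 1 library lay far from the other 3 by Dixon's criterion, which chance meets in about 1 in 20 groups. Has1 in Gata5-null replicate 4 was at 6.44 CPM, below 9.09 to 9.18 CPM in the other libraries of its group. Has2 in compound heterozygous replicate 3 was at 8.27 CPM, below 11.5 to 11.8 CPM. Hapln1 in Gata5-null replicate 3 was at 50.5 CPM, above 22.2 to 26.6 CPM, and this is the library with 6000 genes at 0.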

How the results depend on the processing

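No member was called under any alternative run. The number of genes called between Gata5-null valves and wildtype was 5. It was 49 with DESeq2, 0 with the 8 compared libraries alone in edgeR (504 at an unadjusted p under 0.05), 2 without both libraries standing apart, and 2 (without wildtype replicate 2) to 21 (without Gata5-null replicate 4) leaving out each library. Between compound heterozygous valves and wildtype it was 0 and, with DESeq2, 8. Between the mutant groups it was 0, and it was 13 with DESeq2, 2 without both libraries standing apart and 0 to 1 leaving out each library. Members without overlap between the mutant groups numbered 4, but 1 with RLE scaling and 1 with CPM of the total count (an alternative chosen after seeing the data). Between compound heterozygous valves and wildtype they numbered 0, and 1 without both libraries standing apart (also chosen after seeing the data). The share of all genes without overlap was not computed for these alternatives.

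Of 855 alternative log2 fold changes of named genes, 43 turned sign, in 16 of 45 results, none of them called. The cause was not tested. Without both libraries standing apart the values that turned were, against wildtype, Has2 0.21, Hyal2 -0.07 and Tnfaip6 -0.56 in Gata5-null valves, and Has1 0.27, Hyal1 0.08 and Acan 0.09 in compound heterozygous valves. Between the mutant groups they were Has2 0.08, Hapln1 -0.17 and Vcan -0.05. With limma-voom, Tnfaip6 turned to -0.30 in Gata5-null valves, and Has1 to 0.07 and Acan to 0.01 in compound heterozygous valves, against wildtype. Leaving out each library, the ranges that crossed 0 in Gata5-null valves against wildtype were Has2 -0.53 to 0.31, Hyal2 -0.09 to 0.29, Cd44 -0.19 to 0.05, Tnfaip6 -0.60 to 0.51 and Hmmr -0.04 to 0.58. In compound heterozygous valves against wildtype they were Has1 -0.23 to 0.27, Has3 -0.11 to 0.26, Hyal1 -0.12 to 0.08, Hyal2 -0.10 to 0.33, Acan -0.18 to 0.12 and Adamts5 -0.11 to 0.01. Between the mutant groups they were Has2 -0.77 to 0.08, Hyal2 -0.24 to 0.21, Hapln1 -0.17 to 0.33, Tnfaip6 -0.85 to 0.27 and Vcan -0.05 to 0.10.

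With the replicate number as a replicate block, 0 members were called, and 7, 0 and 0 genes in the 3 comparisons. Tnfaip6 then turned to -0.11 in Gata5-null valves, and Has1 to 0.07 in compound heterozygous valves, against wildtype. The deviations of 12 same-numbered pairs correlated at -0.0331 to 0.0951, none over 0.1, and 3 of 12 libraries correlated best with their own number. The numbers were therefore not taken to pair the samples. The synthase sum, rescaled by RLE or plain totals (chosen after seeing the data), kept each group's mean within 1 SD.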
